A study of Mus musculus with 3 samples.

Results

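The livers of mice given a high-fat diet with added iron were compared with the livers of mice given the control diet, to find which genes stayed away from the Control level when iron was supplied with the fat. Male C57BL/6J mice formed 3 groups, and the liver RNA of each was read by 1 array made from the pooled material of all its mice. Control mice received a diet with 10% of its energy from fat. HF+SFC mice received a diet with 60% of its energy from fat that also held sodium ferrous citrate (SFC), an iron salt, at 0.023% by weight. HF mice received the same high-fat diet without the added salt, and their array is shown beside the comparison. Feeding ran for 15 weeks from an age of 6 weeks. The labels give an age of 21 months, which does not match and was not used. All mice were of one sex and one inbred strain, and livers were collected after a short fast. The HF+SFC and Control diets differed in fat, in the carbohydrate that the fat replaced and in the added iron, and the shares of these in a difference cannot be told apart.

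The members were the probe sets, that is, sets of short oligonucleotides that read a transcript, with a signal of 200 or more on the Control or the HF+SFC array. There were 16074 of them among 45101 on the array (35.7% of those other than manufacturer controls). A signal is a brightness in arbitrary units. Of the members, 14685 named 1 gene, 473 named several and 916 had no gene in the annotation used, and 8989 genes were read in all, each by its member of highest mean log2 signal, of 18193 genes on the array. The floor passed Ifna2 at 200.03 on its brighter array and Cpeb3 at 200.1, and it left out Taf4b at 199.99 and Ago4 at 199.97. On both arrays 14447 members reached the floor, while 746 reached it in Control alone and 881 in HF+SFC alone. A member of the last 2 kinds had been kept by its brighter array. Counts for members that reached the floor on both are therefore also given over all genes and for some of the lists.

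With 1 pool per group no test between the diets was possible, no p-value is given, and no difference has a replicate check. The only spread available was that between probe sets of the same gene, an SD of 0.29 on the log2 scale over the genes with 2 or more members. It was 0.39 for the dimmer members, 0.18 for those above the median signal of 701 and 0.13 for those above the upper quartile of 1831. A log2 ratio near the threshold of 1.5-fold (0.585 on the log2 scale), the fold the study used, is therefore less than 2 SDs of the dimmer members. Probe sets of a gene were read on the same arrays, so these SDs hold no variation between mice, pools or labellings. A ratio of many SDs is thus not shown to exceed the error between diets.

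Liver makes most of the body's cholesterol and bile acids, stores and exports fat, and secretes hepcidin, the hormone that lowers iron export from cells. Sterol regulatory element binding proteins drive cholesterol and fatty acid synthesis genes when sterols are scarce or insulin is high. The receptor PPARα drives fatty acid oxidation genes in fasting, and a molecular clock sets daily rhythms in much of liver metabolism.

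The arrays were alike in hybridisation. Spiked hybridisation controls had a median log2 ratio of -0.05, HF+SFC over Control, with 0 of 18 beyond 1.5-fold, and spikes added before labelling had a median of -0.39, with 3 of 27 beyond. RNA integrity, read as signal at the 3′ end over that at the 5′ end, gave 1.84, 1.65 and 1.73 for Actb, and Pcx gave 4.28, 3.23 and 3.89 (Control, HF, HF+SFC). Hepatocyte markers differed little, with 0 of 17 beyond 1.5-fold and a median log2 ratio of -0.06, which turned to 0.01 under quantile normalization and under lowess centring. Albumin (Alb) gave signals of 54077, 50644 and 52202, so the labelled tissue carried its defining transcripts on each array. Throughout, 3 signals in a row stand for Control, HF and HF+SFC in that order, and a log2 ratio is HF+SFC over Control unless HF is named.

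HF+SFC lay at least 1.5-fold above Control in 713 of the 8989 genes (7.93%) and at least 1.5-fold below it in 498 (5.54%). The median log2 ratio over all genes was 0.02, and its quartiles were -0.19 and 0.25. Among genes that reached the floor on both arrays, 491 were higher and 380 lower. In 103 genes 2 or more probe sets were all higher, and in 85 all lower, while in 16 genes probe sets lay beyond 1.5-fold in opposite directions.

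**Figure D1:**
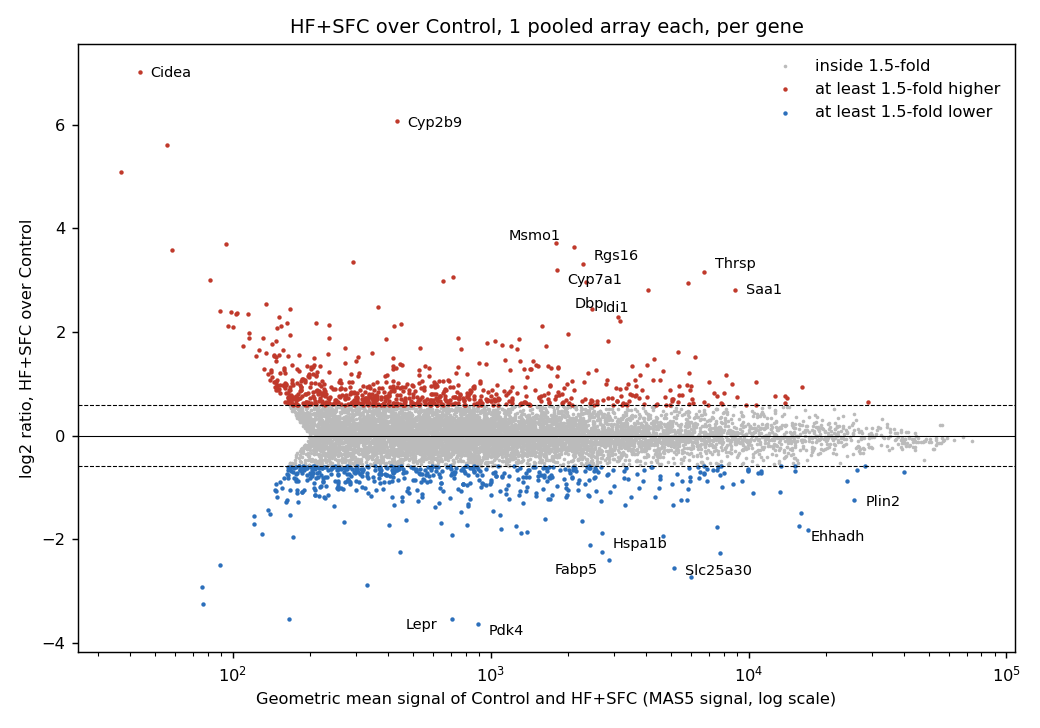
Log2 ratio of HF+SFC over Control (vertical axis) against the geometric mean signal of both arrays on a log axis (horizontal), 1 point per gene for 8989 genes, with dashed lines at 1.5-fold. The 713 red genes lie at or above the upper line and the 498 blue genes at or below the lower one, and the widest ratios at the left belong to genes that are dim on 1 array, such as Cidea.

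The HF array, read against the same Control array, was beyond 1.5-fold in 1184 of these genes (736 higher and 448 lower). Both ratios share the Control array, so that part of any likeness between them comes from it. Of the 1211 genes away from Control in HF+SFC, 749 were away in the same direction in HF (474 higher, 275 lower), 458 lay inside 1.5-fold in HF (238 higher and 220 lower in HF+SFC), and 4 lay beyond 1.5-fold on the other side (Bcl6, Ccl5, Marco and St3gal6). With both arrays at the floor or above, these counts were 534, 334 and 3. In 223 of the 474 and in 133 of the 275, the HF+SFC signal was farther from Control than the HF signal. Conversely, 259 genes higher in HF and 172 lower in HF lay inside 1.5-fold of Control in HF+SFC.

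Cholesterol synthesis stood farthest above Control of the 37 gene lists for which a median was taken. Of 17 measured genes of the pathway, 13 lay at least 1.5-fold above Control in HF+SFC and 0 below it, and all 17 had a ratio above 0. The median log2 ratio was 1.45, beside 0.02 over all genes, and with members that reached the floor on both arrays 11 of 15 were higher at the same median. In HF over Control 10 were higher and the median was 0.68. Summed over the 17 genes, the signals were 46112, 64039 and 93011.

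The promoters of a pair of these genes are shown because sterol regulatory elements and the CCAAT boxes that often accompany them are the known control sites of the pathway. The runs are the 250 bases upstream of the RefSeq start (GRCm38.p6), 5′ to 3′ on the gene's strand, from chr13:119690101-119690350 (plus strand) for Hmgcs1 and chr8:64733579-64733828 (minus strand) for Msmo1. Capitals mark TCACNCCAC, a sterol regulatory element, and CCAAT or its reverse complement.
Hmgcs1: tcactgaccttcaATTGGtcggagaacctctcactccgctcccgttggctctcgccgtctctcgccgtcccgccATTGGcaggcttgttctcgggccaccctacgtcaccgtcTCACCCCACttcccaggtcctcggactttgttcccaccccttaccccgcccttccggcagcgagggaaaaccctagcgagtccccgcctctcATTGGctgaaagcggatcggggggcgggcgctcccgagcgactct
Msmo1: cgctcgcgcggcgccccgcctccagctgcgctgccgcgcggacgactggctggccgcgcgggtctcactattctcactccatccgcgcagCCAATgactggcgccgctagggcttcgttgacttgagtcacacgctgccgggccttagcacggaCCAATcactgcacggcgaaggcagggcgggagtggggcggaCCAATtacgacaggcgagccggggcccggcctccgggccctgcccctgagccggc
In Hmgcs1 the sterol regulatory element began 137 bases before the start. Over windows of the same kind, with the first bases downstream of the start included and both strands read, it was present in 1 of 17 windows of 14 pathway genes (5.88%) and in 1.24% of all 32851 windows of the table. CCAAT was present in 14 of the 17 (82.4%) and in 37.4% of all windows. It was not particular to this pathway, being present in 15 of 23 windows (65.2%) of the clock genes treated below. These matches describe letters in the windows and not binding.

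Along the mevalonate steps, Hmgcs1, which makes the HMG-CoA from which mevalonate is formed, gave signals of 7455, 11972 and 15284, a log2 ratio of 1.04 with its 4 probe sets spanning 1.04 to 1.17. Mevalonate kinase (Mvk) gave 113, 267 and 497 and was under the floor in Control, and with dim signals set to 200 its log2 ratio of 2.13 became 1.31. Idi1, which isomerises the first isoprenoid unit, gave 1059, 2648 and 5798, or 5.47-fold over Control, with both probe sets spanning 2.39 to 2.45. On each of these the HF signal lay between Control and HF+SFC.

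In the sterol steps, squalene epoxidase (Sqle), a rate-limiting enzyme, gave 232, 901 and 1848 and was 7.97-fold higher in HF+SFC. Methylsterol monooxygenase (Msmo1), which removes methyl groups from lanosterol products, gave 594, 3551 and 7423, a 12.5-fold difference, the widest of the pathway, by 1 probe set. The squalene synthase gene Fdft1 gave 1507, 3623 and 5361 and lay at 1.83 on the log2 scale. The next genes differ from these in that the HF array stayed inside 1.5-fold of Control.

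Dhcr7, the enzyme of the last step to cholesterol, gave 603, 836 and 2035, a log2 ratio of 1.76 in HF+SFC and 0.47 in HF. Lanosterol demethylase (Cyp51) gave 888, 1278 and 2418, with 1.45 in HF+SFC and 0.53 in HF. The sterol reductase Tm7sf2 gave 3936, 3912 and 6450.0, with 0.71 in HF+SFC and -0.01 in HF. These 3 were the pathway's only genes away from Control in HF+SFC and inside 1.5-fold in HF. Sc5d, Pmvk, Ebp and Hsd17b7 stayed inside 1.5-fold in HF+SFC, at 0.55, 0.47, 0.21 and 0.02.

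Among the 16 genes of sterol sensing, uptake and efflux, 2 were higher and 1 lower, with a median of 0.04. Insig1, which holds the sterol regulatory proteins in the endoplasmic reticulum and is itself their target, gave 2214, 4188 and 5610.4 and was 2.53-fold higher. Its relative Insig2 gave 19334, 11346 and 9146 and was 2.11-fold lower, by 3 probe sets spanning -1.20 to -1.08. The sterol carrier Stard4 gave 1093, 2094 and 2697, at 1.30. Srebf2, the main activator of the pathway, gave 329, 323 and 441 and stayed inside the threshold at 0.42, and the escort protein gene Scap lay at 0.04. The efflux pump gene Abcg1 was away from Control in HF alone, with signals of 412, 713 and 459.6.

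**Figure D2:**
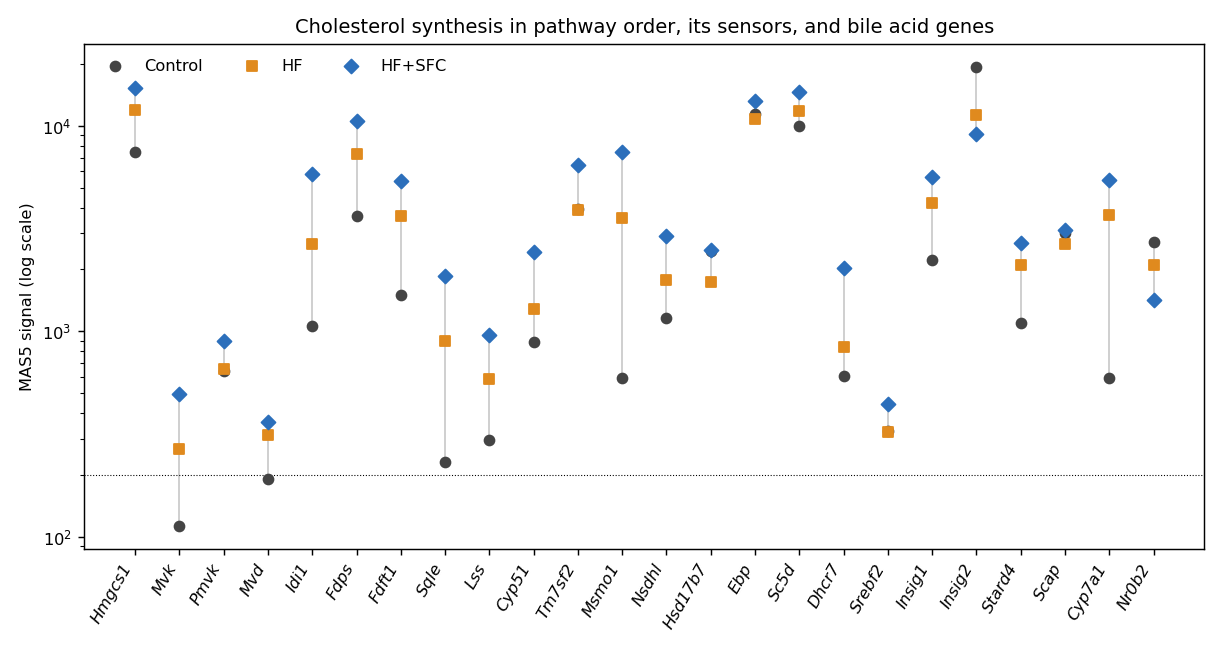
Signals on a log axis (vertical) for the genes of cholesterol synthesis in pathway order, then its sensors, then bile acid genes (horizontal), with 1 circle (Control), square (HF) and diamond (HF+SFC) per gene and the floor of 200 dotted. The diamond is the highest of the 3 in every synthesis gene from Hmgcs1 to Dhcr7, whereas Insig2 and Nr0b2 run the other way.

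Of 18 bile acid genes 2 were higher and 1 lower, at a median of -0.02 (0.02 under quantile normalization). Cyp7a1, which commits cholesterol to bile acids, gave 595, 3679 and 5467, a 9.19-fold difference, with both probe sets spanning 2.84 to 3.20 on the log2 scale. Akr1d1, a reductase of the same route, gave 2534, 4655 and 5723 and lay at 1.18. Nr0b2, the repressor SHP that lowers Cyp7a1, gave 2707, 2091 and 1425, at -0.93 in HF+SFC and -0.37 in HF. The alternative-route enzyme Cyp7b1 and the export pump Abcb11 stayed inside the threshold, at -0.43 and -0.52.

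Fatty acid synthesis held 5 higher genes of 17 and 0 lower, at a median of 0.18, which was -0.17 with a floor of 100 and -0.19 with no floor. Thrsp, a lipogenic regulator, gave 2241, 18804 and 20124 and was 8.98-fold higher, with both probe sets spanning 3.17 to 3.45. Srebf1, the activator of lipogenic genes, gave 3038, 7338 and 9276, at 1.61. Fatty acid synthase (Fasn) gave 2225, 4004 and 4205, at 0.92. The other 2 higher genes were those of ATP citrate lyase (Acly), which makes cytosolic acetyl-CoA, with 4897, 7778 and 7627 at 0.64, and of acetoacetyl-CoA synthetase (Aacs), with 807, 1336 and 1312 at 0.70. The desaturase gene Scd1 lay at -0.25 through its bright probe set and at -1.40 through a dimmer one, Elovl6 at -0.28 and Me1 at -0.56. Of 19 genes of triglyceride synthesis and lipoproteins, 2 were higher and 2 lower, at a median of -0.05 that turned to 0.02 under quantile normalization and 0.01 under lowess centring. The phosphatidate phosphatase Lpin1 gave 5464, 11564 and 12304, a 2.25-fold difference, while its relative Lpin2 lay at -0.60 and fell inside the threshold under quantile normalization. The apolipoprotein genes Apoa1 and Apob lay at -0.02 and -0.12.

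Genes of lipid droplets and fatty acid uptake split, with 9 of 28 higher, 7 lower and a median of -0.02 (0.04 under quantile normalization, 0.03 under lowess centring). With the floor on both arrays 6 were higher and 6 lower of 23. All 16 genes away from Control in HF+SFC were away in the same direction in HF. The higher set held genes typical of fat-storing cells. The fatty acid transporter Cd36 gave 1012, 5213 and 3936, a 3.89-fold difference, with 3 probe sets spanning 1.85 to 2.27. Pparg, the regulator of fat cell genes, gave 84.9, 388 and 325 and was under the floor in Control. Cidea, a droplet protein of brown fat, gave 3.81, 897 and 498, and its Control signal was too dim for a fold. The droplet fusion protein gene Cidec gave 372, 988 and 584, at 0.65 in HF+SFC and 1.41 in HF.

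The lower set held droplet coats and fasting-responsive genes. Perilipin 2 (Plin2), the main coat of liver droplets, gave 39601, 19025 and 16696, a 2.37-fold lower signal in HF+SFC than in Control. G0s2, an inhibitor of the lipase that opens droplets, gave 26842, 10153 and 9481 and was 2.83-fold lower. The fatty acid binding protein gene Fabp5 gave 6587, 1259 and 1254, with both probe sets spanning -2.40 to -2.39 on the log2 scale. In these genes the HF and HF+SFC signals lay close together, away from Control. Of the adipocyte markers 5 were measured and 2 were higher (Cidea and Fabp4), with summed signals of 53666, 63850 and 63324 that Car3 dominated. Car3 lay at 0.21 by its brightest probe set, the one used, and at 0.51, 2.24 and 2.86 by dimmer ones. As the median over probe sets 3 of the 5 markers were higher, and the list median of 0.215 became 0.95. Adipoq and Lep, which define fat cells, were under the floor, and the part of fat tissue in these values was not tested.

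Targets of PPARα and of fasting lay farthest below Control of the 37 lists. Of 19 genes, 10 were at least 1.5-fold lower in HF+SFC and 0 were higher, at a median of -0.88, and the counts and the median were the same with the floor on both arrays. In HF over Control 12 were lower and the median was -0.79. The receptor's own gene, Ppara, differed little, with signals of 7231, 5964 and 6308. Summed signals were 176037, 96003 and 100280.

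Pdk4, the kinase that shuts off pyruvate oxidation in fasting, gave 3165, 339.6 and 253 and was 12.5-fold lower. Acot1, an acyl-CoA thioesterase, gave 15460.1, 2265 and 2321, a 6.66-fold lower signal, and its near-identical relative Acot2 gave 2848, 1005 and 934. Because probes can cross between such copies (Acot1 and Acot2, the Cyp4a and Cyp2b genes, Saa1 and Saa2, Mt1 and Mt2, Hspa1a and Hspa1b, Lyz1 and Lyz2), a value of any of these genes may hold signal of the other. The peroxisomal bifunctional enzyme Ehhadh gave 28825, 8432 and 8595 and was 3.35-fold lower.

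Fgf21, a hormone that liver releases in fasting, gave 1381, 397 and 365, at -1.92. The carnitine transporter Slc22a5 gave 5197, 1449 and 1416, with both probe sets spanning -1.98 to -1.88. The fatty acid hydroxylase Cyp4a14 gave 32715, 14336 and 17738, at -0.88 in HF+SFC and -1.19 in HF. Not every target was lower. Cpt1a, which admits fatty acids to mitochondria, gave 12723, 10668 and 12863, and Vnn3 and Ppargc1a lay above Control at 0.53 and 0.43, inside the threshold.

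**Figure D3:**
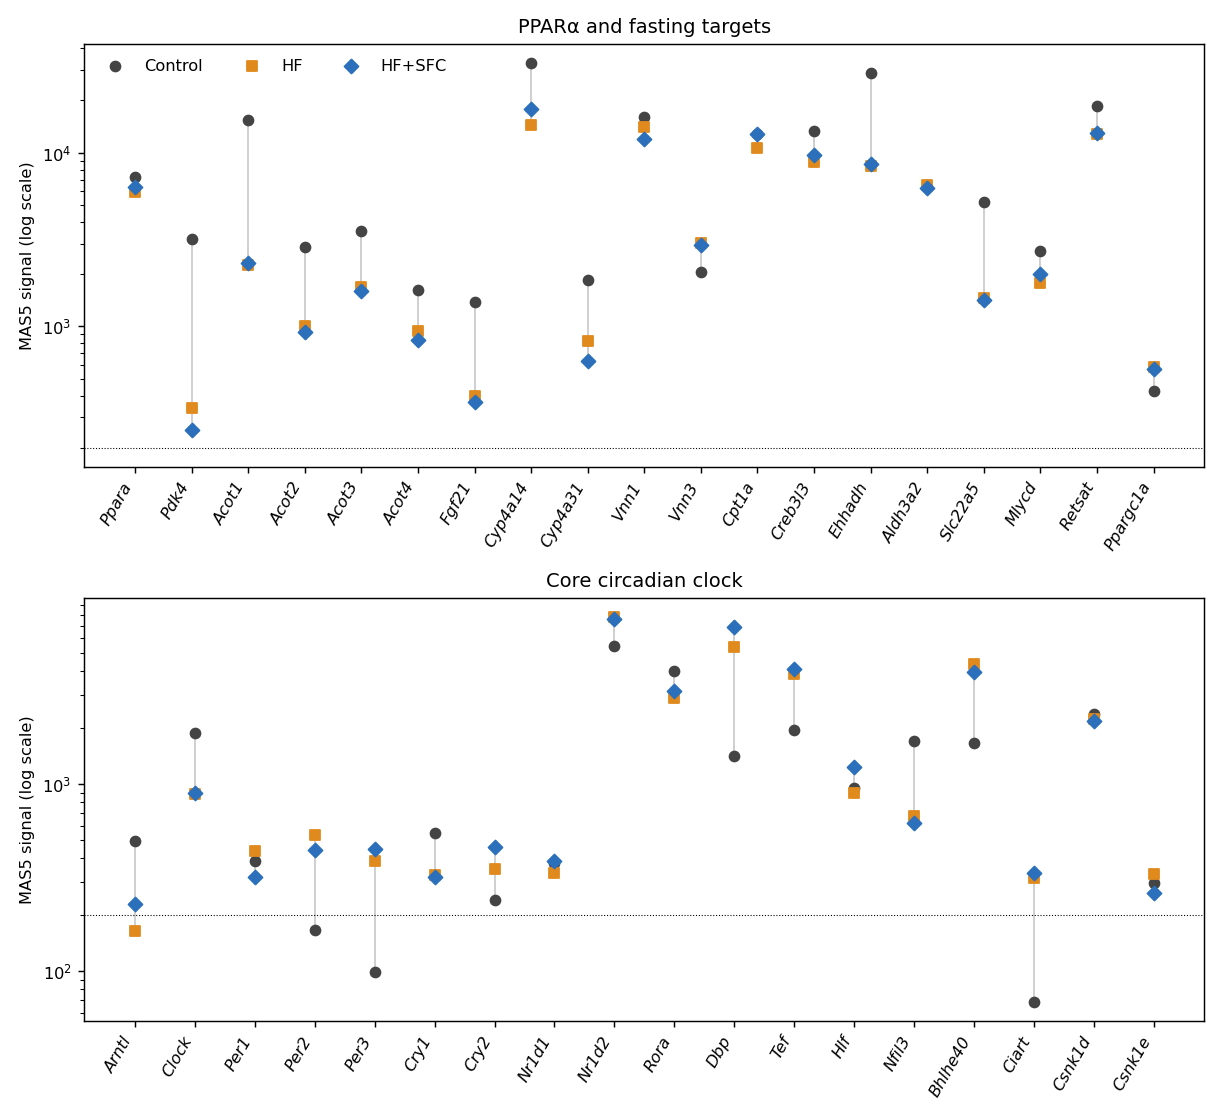
Signals on a log axis (vertical) for PPARα and fasting targets (upper panel) and core circadian clock genes (lower panel), with 1 circle (Control), square (HF) and diamond (HF+SFC) per gene and the floor of 200 dotted. In Pdk4, Acot1, Ehhadh, Fgf21 and Slc22a5 the square and the diamond lie together far below the circle, while in Dbp, Per3 and Ciart they lie above it.

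In mitochondrial beta-oxidation 1 of 22 genes was higher (Acad10, 0.80) and 1 lower (Cpt2), at a median of -0.08. Cpt2 lay at -0.64 through its brighter probe set and at 0.99 through another, so that its direction depends on the probe set. In peroxisomal oxidation 3 of 18 were lower and 0 higher, at a median of -0.13, beside 5.54% lower over all genes. The count of 0 higher depends on how Abcd2 is read. Its brightest probe set gave 250, 350 and 336, a ratio of 0.43, inside the threshold. Dimmer ones gave 0.64 and 2.16, the last with 109 in Control, under the floor. As the median over probe sets Abcd2 reached 0.64, and the list held 1 higher and 3 lower genes. Setting dim signals to 200 gave the same counts. Carnitine acetyltransferase (Crat) gave 2284, 817 and 686, with 3 probe sets spanning -2.06 to -1.43, the peroxisome proliferation gene Pex11a lay at -0.81 and Crot at -0.66. Among 21 genes of glucose metabolism and insulin response 3 were higher and 4 lower, at a median of -0.03. Without probe sets whose name suffix marks them as ambiguous, 1 of 19 was higher and 4 were lower. Besides Slc2a2 below, the higher genes were Pgd at 0.78 and Foxo3 at 0.83, with Foxo3 at 0.38 by another probe set. Igfbp1, a binding protein that insulin lowers, gave 16981, 3877 and 3549 and was 4.78-fold lower, and the glucose transporter Slc2a2 gave 11668, 22299.9 and 22408, at 0.94. Glucose-6-phosphatase (G6pc) gave 14335, 10339 and 8687 and was past 1.5-fold in HF+SFC alone. The insulin receptor substrate gene Irs2 gave 500.2, 151 and 301, at -0.73 in HF+SFC and -1.73 in HF.

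Core clock genes were spread to both sides, with 7 of 18 higher, 4 lower and a median of 0.20. With the floor on both arrays 4 were higher and 4 lower of 15, and the median turned to -0.13. In HF over Control 6 were higher and 4 lower. In 10 of the 11 genes away from Control, HF was away in the same direction, the exception being Cry2. Per the study's methods, tissues were taken after a fast of a few hours, and plasma after the same fast in the morning. How the mice of the single pools were spread over that time was not compared here, and the part of time of day and of feeding in these and the other values was not tested.

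The promoters of 2 of the higher genes are shown for their E-boxes (CACGTG), which the clock activators bind, and D-boxes (TTATGNAA), which Dbp and its relatives bind. The runs are the 250 bases upstream of the RefSeq start (GRCm38.p6), 5′ to 3′ on the minus strand, from chr3:95882229-95882478 for Ciart and chr4:151044666-151044915 for Per3. Capitals mark E-boxes in Ciart and D-boxes, on either strand, in Per3.
Ciart: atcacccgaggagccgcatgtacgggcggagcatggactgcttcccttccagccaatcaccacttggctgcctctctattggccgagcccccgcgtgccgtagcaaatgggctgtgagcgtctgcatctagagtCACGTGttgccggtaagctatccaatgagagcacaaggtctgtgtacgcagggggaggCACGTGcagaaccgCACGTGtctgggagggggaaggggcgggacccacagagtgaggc
Per3: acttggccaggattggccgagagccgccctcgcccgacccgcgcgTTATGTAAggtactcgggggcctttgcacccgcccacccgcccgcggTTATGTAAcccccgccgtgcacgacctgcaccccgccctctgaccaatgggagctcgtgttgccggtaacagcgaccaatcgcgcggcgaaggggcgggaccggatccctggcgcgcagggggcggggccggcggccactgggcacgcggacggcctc
Ciart held 3 E-boxes, at 116, 58 and 44 bases before the start, and Per3 held 2 D-boxes, at 205 and 158. An E-box was present in 5 of 23 windows of 15 clock genes (21.7%) and in 7.15% of all windows, and a D-box in 2 of 23 (8.7%) and in 3.38%. An E-box reads the same on both strands and the motifs share no bases here.

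On the higher side, Dbp, an output factor of the clock, gave 1406, 5398 and 6891 and was 4.90-fold higher in HF+SFC, with both probe sets spanning 2.27 to 2.29 on the log2 scale. Per3, a repressor of the clock, gave 99.6, 387 and 449, and Ciart, another repressor, gave 68.4, 315 and 335, both under the floor in Control, and with dim signals set to 200 their log2 ratios were 1.17 and 0.74. On the lower side, the activator gene Arntl gave 494, 163 and 228, and its partner Clock gave 1873, 879 and 898, at -1.06 by the probe set used and -0.52 as the median of its 3 probe sets. Nfil3, the factor that opposes Dbp at the D-box, gave 1694, 674 and 619 and was 2.74-fold lower. The clock repressor Nr1d1 lay near Control, at 0.03.

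Acute phase proteins, which liver secretes in inflammation, held 10 higher genes of 24 and 0 lower. The median was only 0.18, and -0.04 with a floor of 500, and the other 14 genes lay inside 1.5-fold. Where both arrays reached the floor, 9 of 23 were higher and 0 lower. All 10 higher genes of the 24 were also higher in HF, and in 7 of them HF+SFC lay farther from Control than HF. Serum amyloid A1 (Saa1) gave 3351, 16086 and 23581, a 7.04-fold difference with both probe sets spanning 2.81 to 3.22, and Saa2 gave 493, 5764 and 6476. The metal-binding metallothioneins, induced by zinc, glucocorticoids and inflammation, gave 2103, 11427 and 16187 for Mt1 and 842, 4399 and 6556 for Mt2. The siderophore-binding lipocalin Lcn2 gave 248, 3022 and 2076, at 3.06 in HF+SFC and 3.61 in HF, so that here the HF signal was the highest. The same held for Saa3, with 603, 1442 and 1005.

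Complement and coagulation genes differed less, with 1 of 31 higher, 2 lower and a median of -0.09. The terminal complement gene C6 gave 6501, 3165 and 2880.2, C8b gave 8306, 3397 and 4076, and coagulation factor F11 gave 1936, 2778 and 3113. Interferon-inducible genes, at a median of 0.06, were higher in 3 of 24 and lower in 0, against 8 higher in HF over Control, where the median was 0.34. The guanylate-binding protein gene Gbp6 gave 494, 1638 and 872 and its relative Gbp2 gave 310.2, 764 and 492, with HF highest in both. Gbp2 lay at 0.66 and fell inside the threshold as the median over its probe sets.

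Cytochrome P450 genes of families 2 and 3, which oxidise drugs and steroids, were higher in 5 of 21 and lower in 1, at a median of 0.13. Where both arrays reached the floor, 3 were higher and 1 lower of 19, at a median of 0.03. Cyp2b9, a gene of female mouse liver, gave 52.8, 3810.0 and 3552, and Cyp2b10, a target of the receptor CAR, gave 48.5, 249 and 207 by the probe set used. Both were under the floor in Control, and with dim signals set to 200 their log2 ratios of 6.07 and 2.10 became 4.15 and 0.05. Another Cyp2b10 probe set gave 7.59, 302 and 327. With dim signals set to 200 that probe set was the one read, and the list held 5 higher genes. The brighter Cyp2c38 gave 915, 2678 and 2227. Cyp2c54 was higher in HF+SFC alone, with 6980.1, 7066 and 11646, while the abundant Cyp3a11 and Cyp2e1 lay at -0.04 and -0.08.

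Of 45 genes of xenobiotic receptors, conjugation and antioxidant defence, 10 were higher and 0 lower, at a median of 0.23, beside 10 higher at a median of 0.25 in HF over Control. The glutathione transferase gene Gstt3 gave 896, 2346 and 2994 and was 3.34-fold higher, the export pump gene Abcc3 gave 2509.8, 6863 and 6487 and the aryl hydrocarbon receptor gene Ahr gave 1047, 2948 and 2666. The sulfotransferase genes Sult1a1 and Sult1d1 were past 1.5-fold in HF+SFC alone, at 0.72 and 0.62 against 0.46 and 0.39 in HF. Nqo1, a target of the oxidant-sensing factor NRF2, stayed inside the threshold at 0.37. Amino acid catabolism and the urea cycle held 4 higher genes of 34 and 0 lower, at a median of 0.08. Proline dehydrogenase (Prodh) gave 2626, 4534 and 5089.8 and alanine transaminase (Gpt) 4727, 6787 and 7688. Asparagine synthetase (Asns) gave 121, 118 and 215, but its ratio of 0.83 became 0.11 with dim signals set to 200.

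Genes of the growth hormone axis and of male liver were higher in 3 of 21 and lower in 8, at a median of -0.20. Male and female mouse livers differ in some of these genes under the pattern of growth hormone release. The list also holds the female-typical Cyp2b9 and Hao2, both among the 3 higher genes, so its median is no reading of male genes alone. Where both arrays reached the floor, 1 of 19 was higher and 8 lower, at a median of -0.34. The leptin receptor gene Lepr gave 2409, 203 and 209, an 11.5-fold lower signal by the probe set used, with its 3 probe sets spanning -3.53 to -2.39 on the log2 scale. Elovl3, a fatty acid elongase higher in males, gave 32082, 8770.2 and 9091 and was 3.53-fold lower. Socs3, an inhibitor of cytokine signalling, gave 980.0, 446 and 376, and the male-typical Cyp4a12a gave 8059, 5337 and 3196. Hao2, typical of females, gave 71.0, 356 and 389 and was under the floor in Control. The hormone's receptor and product were near Control, Ghr at 0.12 and Igf1 at 0.10.

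Heat shock and endoplasmic reticulum stress genes held 6 lower members of 34 and 0 higher, at a median of -0.19. The inducible chaperone Hspa1b gave 5879, 1743 and 1249, a 4.71-fold lower signal with 3 probe sets spanning -2.26 to -2.12. Hsph1, a partner of such chaperones, gave 4142, 2265 and 1724. Of the reticulum genes, Dnajb9 gave 6992, 3897 and 3654, and Creld2 gave 3342, 1379.9 and 1934. The reticulum chaperone Hspa5 lay at -0.52 and Ddit3, a stress-induced factor, at -0.47, both inside the threshold. In the cell cycle list 3 of 13 genes were higher and 3 lower, at a median of -0.11 that turned to 0.20 with a floor of 100 and 0.07 under quantile normalization. Where both arrays reached the floor, 2 of 11 were higher and 2 lower. The cell cycle inhibitor Cdkn1a gave 2044, 679 and 590.0 and the growth arrest gene Gadd45g 1464, 356 and 445, while the replication gene Mcm2 gave 190.0, 486 and 433. The proliferation markers Mki67 and Top2a were under the floor.

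Of 32 genes of iron homeostasis 2 were higher and 4 lower, at a median of -0.06. Where both arrays reached the floor, 1 of 30 was higher and 3 were lower, at the same median. Hepcidin (Hamp) gave 50840.0, 22982 and 31316, and was 1.62-fold lower than Control in HF+SFC and 2.21-fold lower in HF, with both probe sets spanning -0.82 to -0.70 on the log2 scale in HF+SFC. Of the targets of the BMP signal that drives hepcidin, Id1 gave 1298, 444 and 510.4, Atoh8 gave 342, 44.2 and 149, and the Atoh8 signals of HF and HF+SFC were under the floor. Other genes of that signal stayed inside the threshold, with ratios of -0.13 for Smad7, -0.01 for Smad6 and -0.56 for Bmpr1a.

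Transferrin receptor (Tfrc), which is raised when cells lack iron, gave 947, 1192 and 1014. Ferroportin (Slc40a1), the exporter that hepcidin blocks, gave 8281, 9081 and 8578, and the ferritin heavy chain gene Fth1 gave 40397, 44954 and 42716. The importer Slc11a2 gave 538, 368 and 356 and passed the threshold narrowly at -0.59, with its 3 probe sets spanning -0.59 to -0.41. With a pseudocount of 16 it lay inside the threshold, at -0.57, and as the median over probe sets at -0.45. Besides Lcn2, the higher gene was the ferrireductase Steap3 with 91.2, 187 and 208, whose ratio of 1.19 became 0.05 with dim signals set to 200.

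**Figure D4:**
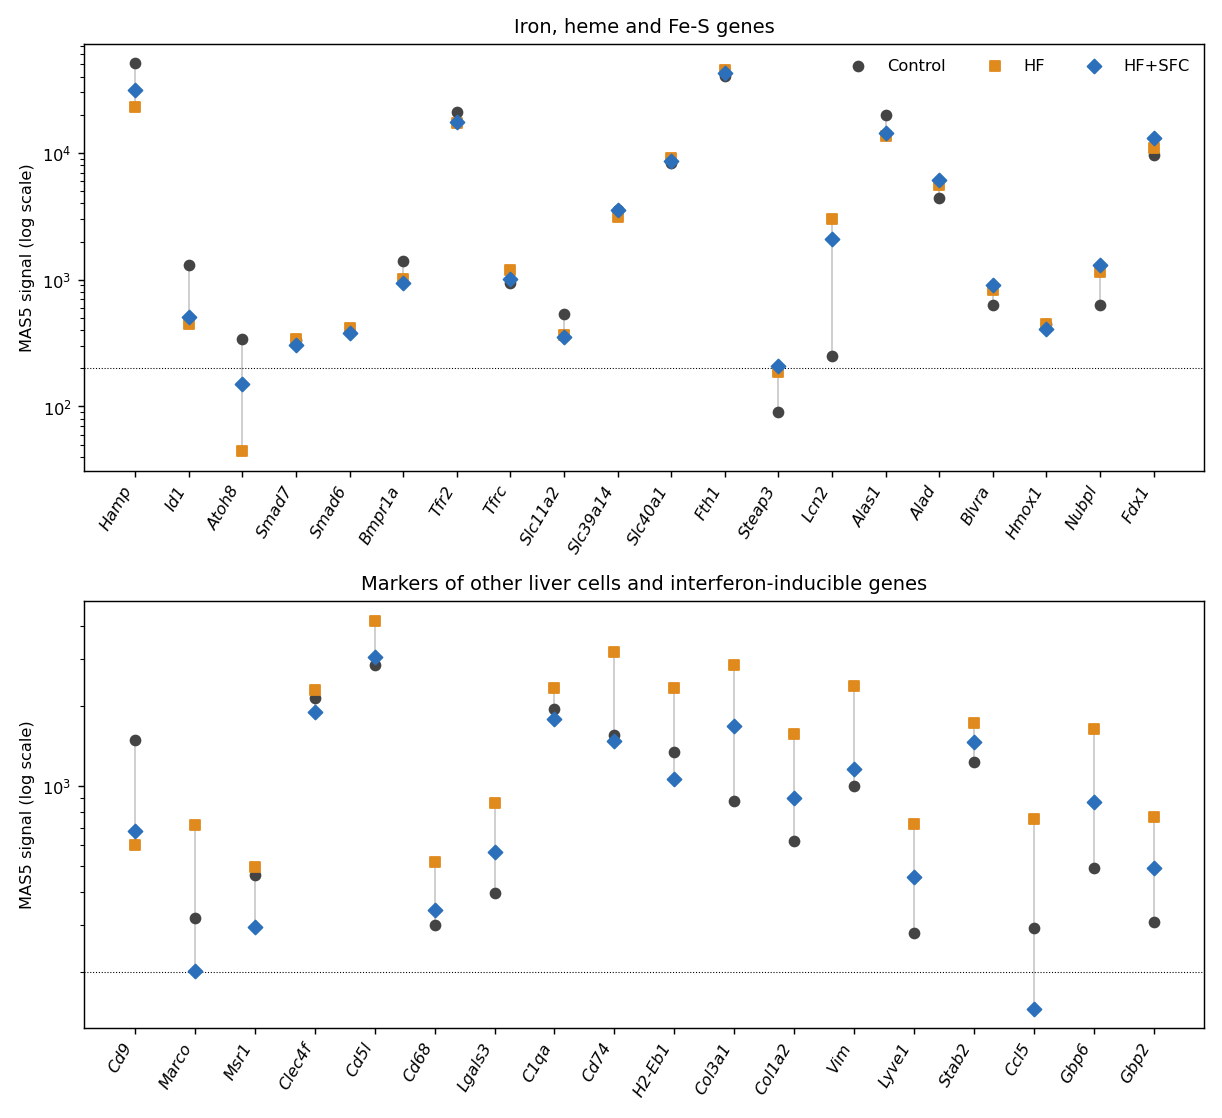
Signals on a log axis (vertical) for iron, heme and Fe-S genes (upper panel) and for markers of other liver cells with interferon-inducible genes (lower panel), with 1 circle (Control), square (HF) and diamond (HF+SFC) per gene and the floor of 200 dotted. Hamp, Id1 and Atoh8 lie below their circles in both diets, and in Marco, Cd74, Col3a1, Vim and Lyve1 the square is the highest of the 3.

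In heme synthesis and breakdown 0 of 21 genes were beyond 1.5-fold, at a median of 0.11. Alas1, the first enzyme of the route, gave 19892, 13558 and 14342, at -0.47 by the probe set used, and 5102, 2260 and 2822, at -0.85, by a dimmer one, so that as the median over probe sets, -0.66, it was lower than Control past the threshold. The next enzyme, Alad, gave 4448, 5613 and 6169.8, at 0.47. Heme oxygenase 1 (Hmox1), which breaks heme down, gave 446, 448 and 407. Of 23 genes of Fe-S cluster assembly, 1 was higher and 0 lower, at a median of 0.18. Nubpl, an assembly factor of respiratory complex I, gave 631, 1145 and 1304, a 2.07-fold difference. Bola3, which passes clusters to mitochondrial enzymes, gave 3593, 4495 and 4763, at 0.41 by the probe set used and -0.34 by another.

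Among the liver genes chosen by the study for qRT-PCR were members of the groups above. Since they were chosen on these mice, they are no independent set. On these arrays 18 of them were measured. In HF+SFC 1 of the 18 was away from Control, namely Hamp, and the median was 0.05. In HF over Control 2 were lower, Hamp and the malonyl-CoA decarboxylase gene Mlycd, at a median of -0.10. Mlycd gave 2723, 1780.1 and 2000.3, at -0.45 in HF+SFC. Enoyl-CoA hydratase (Echs1) gave 9164, 9929 and 11911 and hydroxyacyl-CoA dehydrogenase (Hadh) 29329.9, 34532 and 36718, at 0.38 and 0.32. Cpt1a and Bola3 are given above, and by the probe sets used the others lay between -0.09 (Acadvl) and 0.31 (Coq10a). Among them were 0.17 for Cox10, 0.07 for Ppox, 0.03 for Rsad1, 0.06 for Isca2, 0.18 for Bola1 and 0.07 for Acsl3. Acadl lay at -0.04, Atp5o at -0.07, Uqcrfs1 at 0.01 and Fastkd2 at 0.03. Other probe sets of Fastkd2 lay at 0.58 and -0.23, so that its value depends on the probe set.

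Of 72 measured subunits of oxidative phosphorylation 0 were beyond 1.5-fold in HF+SFC and 0 in HF, at medians of 0.03 and -0.06, and summed signals were 961156, 923826 and 969774. In the citric acid cycle 0 of 16 genes were beyond 1.5-fold, at a median of 0.24. The list median was 0.14 as the median over probe sets. Citrate synthase (Cs) gave 2305, 2938 and 3128, at 0.44, with its 3 probe sets spanning -0.08 to 0.44, and isocitrate dehydrogenase 2 (Idh2) gave 1549, 2203 and 2148. Fumarate hydratase (Fh1) was away from Control in HF alone, with 15998, 10351 and 12255. Among housekeeping lists, 26 of 27 cytosolic ribosomal protein genes lay below 0, at a median of -0.20, with 1 past the threshold (the dim Rps25, -0.60), 0 of 31 proteasome genes were beyond it, at a median of 0.05, and 0 of 11 reference genes, at a median of -0.02 that lay above 0 under 4 alternatives.

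**Figure D5:**
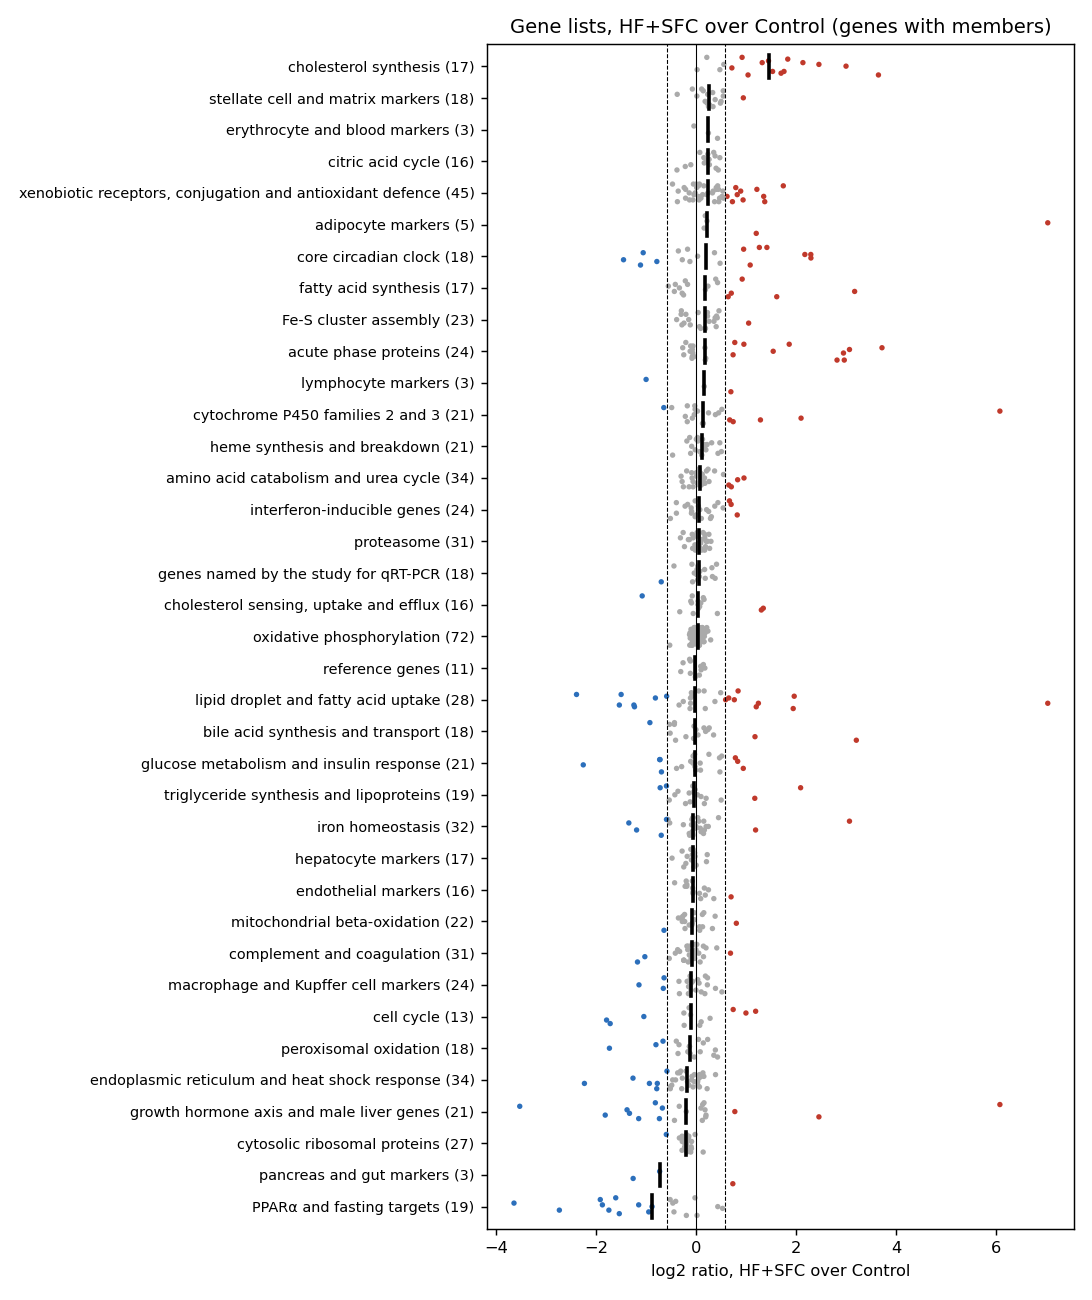
Log2 ratio of HF+SFC over Control (horizontal axis) for each measured gene of 37 lists (rows, number of genes in brackets), with the list median as a thick bar, red and blue points at or beyond 1.5-fold and dashed lines at that threshold. Cholesterol synthesis lies at the top with a median of 1.45, PPARα targets lie at the bottom with -0.88, and most other medians lie close to 0.

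Several markers of other liver cells were away from Control in HF and inside 1.5-fold in HF+SFC. Among them were 9 of 24 for macrophages and 11 of 18 for stellate cells and matrix, beside 431 of all 8989 genes. In pooled tissue, fewer cells of a type and less RNA per cell cannot be told apart. Of 24 macrophage and Kupffer cell markers 0 were higher and 3 lower in HF+SFC, at a median of -0.10, whereas in HF 10 were higher and 1 lower, at a median of 0.51. Their summed signals were 39449, 53097 and 37648. The Kupffer cell marker Clec4f gave 2147, 2304 and 1894, and Cd5l gave 2855, 4197 and 3060.3. Of the class II genes, which present antigen, Cd74 gave 1557, 3202 and 1483, and H2-Eb1 gave 1345, 2347 and 1066. Cd9 was away from Control in the same direction in both diets, with 1497, 601 and 677, and Marco in opposite directions, with 319, 714 and 202. The markers Itgam, Ccr2, Gpnmb and Trem2 were under the floor.

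Stellate cell and matrix markers were higher in 1 of 18 and lower in 0, at a median of 0.26, against 12 higher at a median of 0.73 in HF, and their summed signals were 25726, 38089 and 29866. Col3a1, a fibrillar collagen, gave 877, 2851 and 1685 and was the member away from Control in both diets, at 0.94 and 1.70. Col1a2 gave 623, 1577 and 905 and vimentin (Vim) 1001, 2371 and 1164, each inside the threshold in HF+SFC. The defining stellate cell gene Lrat gave 720.0, 1104 and 909, while Des was under the floor. Endothelial markers were higher in 1 of 16, at a median of -0.06 and with summed signals of 18107, 19952 and 17691. That gene, Lyve1, gave 282, 719 and 458, with both probe sets spanning 0.70 to 0.80 on the log2 scale in HF+SFC.

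Few markers of the remaining cell types passed the floor. Of the lymphocyte markers 3 were measured. Ptprc, the pan-leukocyte antigen, gave 543, 1094 and 607 and Ighm, of B cells, 488, 1205 and 788, while the T cell genes Cd3e, Cd4 and Cd8a were under the floor. Csf3r was the neutrophil marker measured, with 128, 131 and 215, and S100a8 and S100a9 were under the floor. Tff3 was the cholangiocyte marker measured, with 1290.2, 151 and 515, and Krt7, Krt19 and Epcam were under the floor. Of 3 erythrocyte and blood markers 0 were beyond 1.5-fold, and the erythroid enzyme Alas2 gave 2097, 2411 and 2031. Of 3 pancreas and gut markers 1 was higher and 2 lower, at a median of -0.73, with 1584, 1950.5 and 2631 for the elastase Cela1 and 809, 443 and 338 for the gut lectin Lgals4, and with no floor the median of 9 such genes was 0.56. The part of other cells in the results above was not tested.

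Outside the lists, the genes with several probe sets that stood farthest above Control included Rgs16, a brake on G protein signalling, with 721, 9958 and 7166 and 3 probe sets spanning 2.98 to 3.31 on the log2 scale. Upp2, a uridine phosphorylase of liver, gave 1544, 7243 and 10825 and the galectin gene Lgals1 1476, 8569 and 6873. The lectin-like gene Clec2h gave 124, 294 and 456. Among the brightest genes at least 2-fold higher were Hsd17b10, a mitochondrial dehydrogenase, with 6118, 10962 and 12244, and the secreted hepatocyte protein gene Lect2, with 4910.1, 9473 and 10076.

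Farthest below Control outside the lists lay the mitochondrial carrier gene Slc25a30, with 12484, 3200.4 and 2128, its 4 probe sets spanning -2.73 to -2.51. The pseudogene Serpina4-ps1 gave 5058, 884 and 1165 and the small GTPase gene Rab30 2649, 596 and 728. Among the brightest genes at least 2-fold lower was Igfbp2, a binding protein of insulin-like growth factors, with 15262, 5054 and 7142. In all of these genes above and below Control, the HF signal lay on the same side.

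Few genes met a stricter rule for being away from Control with iron and level without it. By the threshold above, 458 of the 1211 genes away in HF+SFC lay inside 1.5-fold in HF. The stricter rule asked that all of 2 or more probe sets be beyond 1.5-fold in HF+SFC, as in 103 higher and 85 lower genes. In HF all of them had to lie within 1.2-fold of Control, or opposite. A limit of 1.2-fold is smaller than the SD between probe sets of 0.29, so the low counts also reflect the rule. It left 0 higher genes and 1 lower gene. This was the B cell chemokine gene Cxcl13, with 238, 259 and 155, 2 probe sets spanning -0.98 to -0.62, and its ratio of -0.62 became -0.25 with dim signals set to 200. The mirror case, all probe sets beyond 1.5-fold in HF and within 1.2-fold in HF+SFC, held for 1 gene higher in HF and 0 lower. It was the lysozyme gene Lyz1, with 4737, 7443 and 4796.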

How the data were processed

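Liver total RNA of the Control, HF and HF+SFC groups, pooled within each, was labelled with biotin and hybridised to Affymetrix mouse genome arrays, 1 array per group. Each deposited value is an intensity, a linear-scale MAS5 signal by the labels (MAS5 version not given in the sources used here). A trimmed mean of 500 on every array was set by the authors, which removes differences in total signal. Detection calls were not used. The number of arrays limits the precision, and the arrays name no genome build.

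From the deposited intensity values the log2 ratio of HF+SFC over Control was taken for probe sets with 200 or more on at least 1 of both arrays, 1 gene per probe set by the platform annotation (34945 of 45037 probe sets named 1 gene, 932 several and 9160 were not listed). Entrez identifiers of 34741 were found in a RefSeq table of GRCm38.p6, which changed 0 symbols. Genes at or beyond 1.5-fold were counted, and medians were taken over 39 lists where 3 or more members were measured (37 lists). The members, the lists and the alternatives were chosen with earlier results of these data known, and support nothing independently. Some genes were not analysed here.

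Named by rule were the 12 highest and 12 lowest genes by median ratio whose probe sets, 2 or more, all passed 1.5-fold one way. The rule also named the 4 list members of widest ratio in every list and the 6 brightest genes at least 2-fold higher and 6 lower. It further named genes whose probe sets were all away in 1 of the diets and within 1.2-fold in the other. The genes chosen for qRT-PCR and defining markers were added. Not every gene so named is given in the text. Other list members were named after their values were seen. The 13 alternatives changed the floor, the scaling (quantile, median or lowess, fraction 0.3), the reading of a gene, a pseudocount of 16 and the threshold. The steps, run in Python 3.11.15 with pandas 2.3.3, numpy 2.4.6, scipy 1.17.1 and statsmodels 0.14.6 and drawn with matplotlib 3.10.9, were tested on simulated data. Promoter windows came from RefSeq.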

Additional observations from a re-analysis of the deposited data

Results flagged for a closer look

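In 4 genes the HF array and the HF+SFC array lay beyond 1.5-fold on opposite sides of Control. With 1 pool per group the difference between the diets was not tested, and no gene had 2 or more probe sets that all passed on both sides. The chemokine gene Ccl5, of T and NK cells, gave signals of 293, 754 and 146 in Control, HF and HF+SFC, a log2 ratio of -1.002 over Control in HF+SFC, and with dim signals set to 200 its ratio became -0.55. Bcl6, a transcriptional repressor that opposes growth hormone action in liver, gave 928, 2009 and 557, at -0.74 by the probe set used and -0.32 by another. The macrophage scavenger receptor gene Marco gave 319, 714 and 202, at -0.66. The sialyltransferase gene St3gal6 gave 351, 228 and 535, at 0.61, and it alone was higher in HF+SFC than in Control.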

How the results depend on the processing

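With 1 array per group there was no replicate to leave out. No paired analysis was possible because each group holds a single array. Counts followed the floor on signal. Beside 713 higher and 498 lower genes, a floor of 100 gave 1131 and 884, a floor of 500 gave 401 and 320, no floor gave 3188 and 3067, and a 2-fold threshold gave 203 and 131. Of the genes away from Control, those with HF away the same way, inside 1.5-fold and on the other side numbered 749, 458 and 4 as reported, 1181, 804 and 30 with a floor of 100, 475, 244 and 2 with a floor of 500, 3572, 2075 and 608 with no floor, and 208, 125 and 1 at 2-fold, and quantile normalization gave 7 on the other side. The share of higher genes among those away was 58.9%, and between 51.0% (no floor) and 60.8% (2-fold) otherwise. The median of the pancreas and gut markers turned to 0.56 with no floor, and Cpt2 turned to 0.17 as the median of its probe sets. Of the ratios of named genes under the alternatives, 1937 moved by less than the spread between probe sets, 44 by more, and 1, that of Cpt2, was past 1.5-fold and changed sign. This tally is no measure of robustness. Alternatives of the floor mainly chose which members were read, so that a ratio there could hardly move, and genes left out were not counted. Moves by more were most frequent with dim signals set to 200 (19) and as the median over probe sets (11). Among genes named by the rule, calls were lost under 1 or more alternatives for Lpin2, Csf3r, Cpt2, Gbp2, Foxo3, Cxcl13, Rps25, Asns, Ccl5, Cela3b and Steap3. Among the listed genes in the text, calls were also lost for Bcl6 (-0.53), Clock (-0.52), Sult1d1 (0.49) and Slc11a2 (-0.45) as the median over probe sets and for Slc11a2 with a pseudocount of 16 (-0.57). The call of Cyp2b10 was not among those lost. The probe set used for it gave 0.05 with dim signals set to 200, while another gave signals of 7.59, 302 and 327. The cause of these changes was not tested beyond the genes each floor admits. A ratio of a gene dim on 1 array is not precise.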
